A study of Arabidopsis thaliana with 96 samples.

Results

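The 9 genes described here encode the main storage and oil body proteins of the Arabidopsis thaliana seed, and they were examined in leaf, a tissue that does not store them. They were chosen by locus, as the 4 genes for 2S albumins, 3 genes for cruciferins and 2 genes for oleosins, out of 27444 nuclear protein-coding genes. The data were lists of ATAC-seq peaks, which are stretches of the genome where Tn5 transposase inserted more often than in the surrounding sequence. The series holds 96 such lists, 4 for each of 24 groups, from a study of conserved noncoding sequences in natural accessions. The lists used here were those of Ad-0, En-2, Hi, Mt and Og, which carry the names of the reference chromosomes, and those of Col-0, the reference accession, which lie on Col-0 sequences within 150 bp of the reference. Each of these 6 groups was leaf of a single natural accession, with no transgene or mutation named, from chambers held at 22 °C with 16 h of light and 8 h of dark. The 4 lists labelled Col-0 untreated served as a control, since their headers name naked DNA in place of chromatin. The labels do not say how many plants a sample held or whether the replicates came from separate plants.

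Seed storage proteins and oleosins are made during seed maturation, when transcription factors of the LEC1, ABI3, FUS3 and LEC2 group and bZIP proteins activate their genes. The B3-domain members of this group bind the RY element, and bZIP proteins bind sequences with an ACGT core such as the G-box. After germination the seed programme is switched off, and proteins of the VAL family and of the Polycomb group are known to keep it silent in leaves.

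The sequences upstream of these genes hold both kinds of element. The RY core (CATGCA), the G-box (CACGTG), the ACGTG core and the TATA box (TATAAA) were searched on both strands in the 250 bases before each annotated start in the reference assembly, RefSeq TAIR10.1. A G-box holds the ACGTG core on each strand and counted as a match to both. Matches that overlapped were counted separately. The RY core was found in 8 of the 9 members and in 8.43% of the 27443 windows of this length, and at least 2 matches were found in 7 members and in 1.66% of the windows. The RY core and the ACGTG core occurred together in 6 members and in 2.22% of the windows. The G-box alone was present in 5 members and in 6.49% of the windows, and the TATA box in 5 members and in 47.3% of the windows. The windows of the 4 albumin genes had 62.6% to 85.8% identical bases in pairwise alignments, so their matches are not independent. The 4 albumin windows are printed because they show the shared arrangement next to genes that held almost no peak. Capitals mark the RY core and the ACGTG core on either strand. All sequences here are of the reference, and those of the other accessions were not read.
SESA1, chr4:13607079-13607328, plus strand: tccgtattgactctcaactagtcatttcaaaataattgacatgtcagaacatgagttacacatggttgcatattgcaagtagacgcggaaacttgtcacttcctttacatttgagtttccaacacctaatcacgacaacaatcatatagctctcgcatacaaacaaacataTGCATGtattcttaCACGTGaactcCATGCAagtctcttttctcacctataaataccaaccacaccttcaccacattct
SESA2, chr4:13609091-13609340, plus strand: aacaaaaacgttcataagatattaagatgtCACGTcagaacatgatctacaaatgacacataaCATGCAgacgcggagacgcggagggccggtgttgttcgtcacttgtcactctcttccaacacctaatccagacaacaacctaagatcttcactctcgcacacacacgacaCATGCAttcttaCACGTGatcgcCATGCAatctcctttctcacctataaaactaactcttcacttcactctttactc
SESA3, chr4:13611546-13611795, plus strand: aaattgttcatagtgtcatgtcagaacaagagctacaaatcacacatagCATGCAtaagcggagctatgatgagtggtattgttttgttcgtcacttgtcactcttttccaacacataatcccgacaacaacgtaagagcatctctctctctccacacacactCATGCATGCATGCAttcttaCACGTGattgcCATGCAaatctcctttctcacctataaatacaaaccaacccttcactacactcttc
SESA4, chr4:13613346-13613595, plus strand: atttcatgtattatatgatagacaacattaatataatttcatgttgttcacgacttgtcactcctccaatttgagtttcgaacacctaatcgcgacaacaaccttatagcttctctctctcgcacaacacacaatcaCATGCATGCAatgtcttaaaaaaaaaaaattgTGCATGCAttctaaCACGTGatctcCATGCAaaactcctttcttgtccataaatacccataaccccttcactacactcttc

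In all 4 windows a G-box was followed by an RY core. The G-box began 65 bases before the start in SESA1 and SESA2 and 67 bases before it in SESA3 and SESA4. The RY core after it began 54 bases before the start in the former pair and 56 bases before it in the latter. Upstream of the G-box lay further RY cores, and SESA3 had 7 matches in all, SESA4 had 6, SESA2 had 3 and SESA1 had 2. Many of these overlapped, so the counts are not numbers of separate elements. In SESA3 the matches that began 87, 85, 83, 81 and 79 bases before the start formed a single stretch. In SESA4 those at 113, 111 and 109 bases formed another, as did those at 81 and 79. Among the cruciferin genes, CRA1 had 2 RY cores and no ACGTG core, CRU3 had 1 RY core and 3 ACGTG cores, and CRU2 had neither. OLEO1 had 3 RY cores and 2 G-boxes, and OLEO2 had 2 RY cores and no ACGTG core.

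Sites where peaks were listed are printed next, because few of the peaks had their summit in the windows above. They are the upstream side of ABCI21 beyond the end of CRA1, the intergenic sites upstream of CRA1 and CRU2, the gap beside PHB1 upstream of CRU3, and the gap between PMSR4 and OLEO1. Each holds intergenic bases only, on the strand given, with the same capitals. The median summit of the OLEO1 site lay just outside the printed gap, inside PMSR4. The 201 bases centred on that summit held no RY core and 1 ACGTG core, so the capitals in the gap do not describe the summit itself.
CRA1 downstream site, chr5:17755769-17755968, minus strand: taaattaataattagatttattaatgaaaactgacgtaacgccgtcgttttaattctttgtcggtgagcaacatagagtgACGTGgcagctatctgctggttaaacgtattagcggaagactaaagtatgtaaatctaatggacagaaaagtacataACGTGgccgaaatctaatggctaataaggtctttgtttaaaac
CRA1 upstream site, chr5:17759372-17759572, minus strand: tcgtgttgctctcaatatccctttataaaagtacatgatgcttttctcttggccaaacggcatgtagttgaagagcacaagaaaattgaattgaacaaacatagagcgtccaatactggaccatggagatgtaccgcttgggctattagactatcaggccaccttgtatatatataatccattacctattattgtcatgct
CRU2 site, chr1:984220-984420, plus strand: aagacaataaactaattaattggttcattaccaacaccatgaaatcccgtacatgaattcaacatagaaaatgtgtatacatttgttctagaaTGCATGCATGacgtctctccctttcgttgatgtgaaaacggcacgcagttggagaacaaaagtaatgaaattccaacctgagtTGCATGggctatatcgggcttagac
CRU3 site, chr4:14086883-14087082, plus strand: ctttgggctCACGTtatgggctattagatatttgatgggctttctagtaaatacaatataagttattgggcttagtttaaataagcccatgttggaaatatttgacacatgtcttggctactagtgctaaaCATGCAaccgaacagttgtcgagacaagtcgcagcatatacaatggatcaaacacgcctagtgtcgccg
OLEO1 gap, chr4:12900091-12900390, plus strand: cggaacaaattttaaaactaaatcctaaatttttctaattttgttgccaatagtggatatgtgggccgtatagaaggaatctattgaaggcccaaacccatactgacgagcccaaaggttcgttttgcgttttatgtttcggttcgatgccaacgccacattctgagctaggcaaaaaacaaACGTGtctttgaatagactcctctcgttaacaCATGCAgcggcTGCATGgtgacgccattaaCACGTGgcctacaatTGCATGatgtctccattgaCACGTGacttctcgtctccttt

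The depth of the 24 accession files ranged from 1463227 to 4754108 mapped tags and the number of nuclear peaks from 5564 to 21327. Mt had the most peaks at 1752896 to 1805096 tags, and Col-0 was the deepest. Pileup is the number of extended tags stacked on the summit of a peak, and it is given per 1000000 tags of its file (ppm). The lowest listed pileup of a file ranged from 2.94 to 4.52 ppm. Coverage was listed for peaks alone, so a locus without a peak may still hold weaker signal. The 4 files of an accession differed by no more than sampling noise at the summits they shared. The dispersion index, which is 1 for random draws from one library, was 0.815 to 0.923 over 36 pairs of files of the same accession and 3.12 to 7.83 over 10 pairs of different accessions. Each accession was therefore counted as 1 sample, a gene was called in an accession when all 4 files listed a peak, and no difference between accessions was tested. Of 14 genes for photosynthetic proteins of the leaf, 10 were called in all 6 accessions, against 10% of all protein-coding genes. Of 6 genes of root and pollen none was called in all 6, which is near that share. In any one accession 0 to 3 of these 6 genes were called.

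A peak was assigned to a gene when its summit lay between 1500 bp upstream of the annotated start and 500 bp past the end. In Ad-0 1 of the 9 genes was called and 16.3% of all protein-coding genes. En-2 had 4 members called at a background of 32.3%, Hi had 2 at 15.7%, and Mt had 5 at 54.7%. Og had 3 at 40.7% and Col-0 had 5 at 44.7%. Over the 6 accessions this gave 20 of 54 pairs of gene and accession, or 37%, against 34.1% for all genes, so the number of calls in the span was near the background. The pairs count each gene once per accession, so they are not independent and rest on 9 genes. A call in no accession was found for 3 of the 9 members and 39.5% of all genes, and a call in all 6 for 1 member and 10% of all genes. A call in 1 accession was found for 2 members and 13.2% of all genes, and in 4 accessions for 3 members and 10.2%. No member was called in 2, 3 or 5 accessions.

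The members differed from one another in the files with a peak, out of 24. CRA1, one of the cruciferin genes, had a peak in 24 files, OLEO1 in 20, and CRU2 and CRU3 in 19 each. OLEO2 had one in 12 files, SESA1 in 4 and SESA4 in 3, and SESA2 and SESA3 had none. At least 1 file with a peak was found in Ad-0 for 4 members against 32% of all genes, in En-2 for 5 against 52.1%, and in Hi for 5 against 30.3%. In Mt it was found for 7 against 75.8%, in Og for 5 against 61.3% and in Col-0 for 5 against 59.6%. In the naked DNA control 1 member and 1.67% of all genes had a peak in at least 1 file. That peak lay inside OLEO1, 776 bp after its start, in replicate 4, at 2.64 ppm, and no accession file listed a peak of OLEO1 there.

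**Figure D1:**
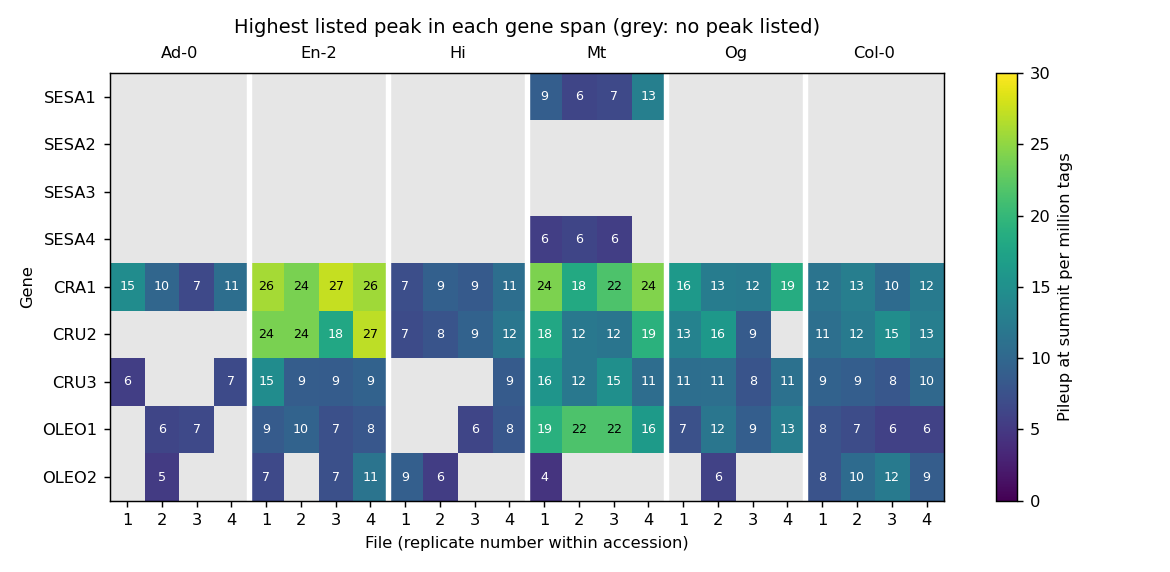
Highest pileup at a summit in the span of each gene (rows) in each of the 24 files (columns, 4 per accession), in ppm and printed in each cell to the nearest whole number. Grey cells had no listed peak. SESA2 and SESA3 are grey throughout, SESA1 and SESA4 have values in Mt only, and CRA1 has a value in every file.

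Fewer members were called close to their own start than in the span. In the promoter window, from 500 bp upstream to 100 bp past the start, no member was called in Ad-0 or Hi, where 7.57% and 7.84% of all genes were. OLEO1 was the one member called in En-2, Mt, Og and Col-0, where the background was 16.1%, 29.6%, 20.9% and 23%. These were 4 of 54 pairs, or 7.41%, against 17.5% of all genes. When only peaks nearer to the start of the gene itself than to any other start were counted, 6 of 54 pairs, or 11.1%, were called, against 23.5% of all genes. CRA1 made up 5 of these 6, in Ad-0 (background 10.7%), En-2 (21.4%), Mt (38.8%), Og (27.7%) and Col-0 (31.5%), and OLEO2 in Col-0 the other. In Hi no member was called in this way, against 10.5% of all genes.

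The 24 files listed 124 peaks in the spans of the 9 genes, and 22 of them, or 17.7%, had their summit in the promoter window. Over all genes and the summits in their spans this share was 41.8% to 47.2% in the 24 files. The 22 peaks were 20 of OLEO1 and 2 of SESA1. Of the 124 peaks, 66, or 53.2%, had their summit within 200 bp of the start of another protein-coding gene, against 23.3% to 26.2% over all genes and summits. The 20 OLEO1 peaks were counted in both places. The 66 peaks came from the CRA1 downstream site in 23 files, OLEO1 in 20, CRU3 in 19 and the site upstream of SESA1 in 4. Both shares count a site once for each file that listed it, so they rest on few loci and not on 124 independent peaks. The peaks formed 10 sites, of which 8 appeared in 3 or more files and 2 in a single Mt file each.

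**Figure D2:**
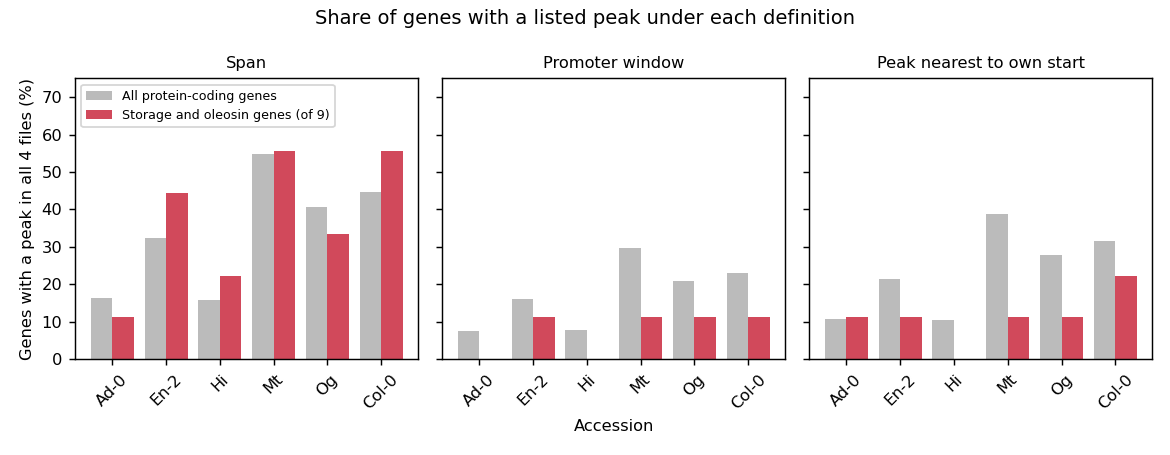
Percent of genes with a peak in all 4 files of each accession, for all 27444 protein-coding genes (grey) and for the 9 storage and oleosin genes (red), under 3 definitions. In the span the red bars lie on both sides of the grey ones, and in the promoter window they stand at 0 in Ad-0 and Hi and at 1 of 9 genes in the other accessions.

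**Figure D3:**
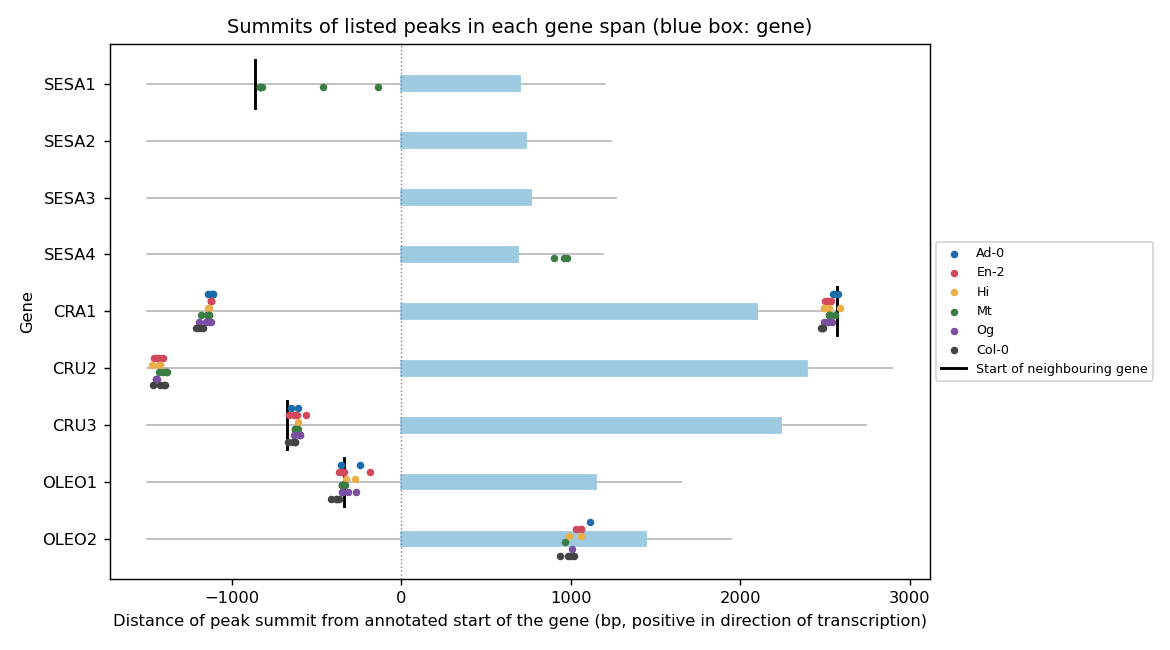
Distance of each listed summit from the annotated start of the gene, in bp, with 1 row per gene, 1 colour per accession and 1 point per peak. The blue box is the gene, the grey line its span and the black bar the start of the neighbouring gene beside a site, where it falls within the span. Summits of CRU3, OLEO1, SESA1 and the CRA1 downstream site gather at black bars, and OLEO2 is the one gene with summits inside the blue box.

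The 2S albumins are small sulfur-rich storage proteins, and their genes stand in tandem on chromosome 4. SESA1 (AT4G27140) lies at chr4:13607329-13608031, SESA2 (AT4G27150) at chr4:13609341-13610075, SESA3 (AT4G27160) at chr4:13611796-13612563 and SESA4 (AT4G27170) at chr4:13613596-13614283, all on the plus strand of TAIR10. Over the 6955 bp from the first start to the last end, no file of any of the 6 accessions listed a summit. In Ad-0 and Hi the summits on either side were 43093 to 43237 bp apart. Stretches without a summit at least this long held 47.6% to 48.4% of the bases between summits in those 2 accessions, so a gap of this length was common there. In Col-0 the flanking summits were 34016 to 34117 bp apart, and stretches as long or longer held 20.4% to 20.5% of its bases. In En-2 and Og the distance was 34025 to 43252 bp and 34050 to 43142 bp.

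Mt was the exception, with summits 7366 to 12375 bp apart around the array. All 4 Mt files listed a site 831 bp upstream of SESA1, with values of 8.97, 6.28, 6.65 and 13.0 ppm. This site lay 30 bp upstream of the start of AT4G27130, a divergent gene for a translation initiation factor of the SUI1 family, which is separated from SESA1 by 860 bp. The other 5 accessions listed no peak there in any file. Nearer to SESA1, Mt replicate 1 listed a summit 138 bp upstream of the start at 5.05 ppm, and replicate 4 one 463 bp upstream at 5.65. Both were weak, at the 5.41 and 10.8 percentiles of the peak heights in their files, and neither appeared in another file. The SESA1 pattern of a call in Mt alone was shared by 2730 genes, or 9.95% of all genes.

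SESA4 was called in no accession, but replicates 1, 2 and 3 of Mt listed a summit 900 to 976 bp after its start. The 3 values were 5.61, 6.28 and 5.54 ppm, at the 3.60 to 17.0 percentiles of their files, and they lay in the 538 bp between the end of SESA4 and the end of ATK2, a kinesin gene on the opposite strand. SESA2 and SESA3 had no peak in any accession file, as had 5605 genes in all, or 20.4% of all genes. The nearest summit to SESA2 was 2150 to 2843 bp away in Mt and 4876 to 14023 bp away in En-2. The albumin genes are near copies of one another, with 81.9% to 90.2% identical bases in pairwise alignments. Of the 50-base words of the 4 spans, 100% after rounding nevertheless occurred once in the reference. Of the words of 36 bases, the length of the tags, 98.5% to 99.6% did.

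The cruciferins are legumin-type globulins and the most abundant storage proteins of the seed. CRA1 (AT5G44120) lies at chr5:17756238-17758336 on the minus strand and held 2 sites. The upstream site, 1136 bp before the start, was intergenic and listed in 22 files. En-2 had 25.9, 23.9, 27.4 and 25.7 ppm there, and Ad-0 had 14.6, 9.88, 6.62 and 10.8. Mt had 12.3, 14.3, 15.5 and 13.0, Og 16.2, 11.7, 9.83 and 12.0, and Col-0 9.01, 9.82, 9.38 and 7.78. Hi listed the site in replicates 1 and 4 only, at 6.35 and 9.05. The En-2 files lay above every other file at this site and stood at the 88.1 to 91.2 percentiles of their own peaks. The mean of En-2 was 2.86 times that of Col-0, and 1.97 times by fold enrichment over the local background, a difference between single samples. The site was 1393 bp from the start of FLA13, the divergent neighbour, and so was nearer to CRA1.

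The downstream site of CRA1 lay 422 bp past its end and 48 bp upstream of the start of ABCI21, a transporter-family gene on the same strand. It was listed in 23 files, all but Ad-0 replicate 3. Mt was highest there, with 24.1, 18.3, 21.6 and 24.3 ppm, and Hi had 7.26, 9.17, 8.52 and 10.9. Ad-0 had 7.57, 5.72 and 10.3, En-2 had 13.3, 19.1, 8.68 and 16.9, Og had 14.9, 12.6, 12.3 and 18.6, and Col-0 had 11.6, 12.9, 10.4 and 12.2. The Mt values overlapped with those of En-2 and Og and lay above those of Ad-0, Hi and Col-0. By fold enrichment Mt at 9.42 to 12.5 overlapped with Col-0 at 8.14 to 9.74 as well. The order of the accessions thus differed between the 2 sites of the same gene, with En-2 highest upstream and Mt highest downstream. CRA1 was called in all 6 accessions through one site or both, as were 2744 genes, or 10% of all genes.

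CRU2 (AT1G03880), at chr1:985751-988146 on the plus strand, had 1 site 1431 bp upstream of its start. The site lay close to the edge of the span and 776 bp upstream of the start of FLA9, a divergent gene for a fasciclin-like arabinogalactan protein. En-2 was highest, with 24.0, 23.9, 18.0 and 27.0 ppm, and Mt had 17.9, 12.0, 11.6 and 19.2. Col-0 had 10.9, 12.2, 14.7 and 12.8, Hi had 6.81, 7.80, 9.42 and 11.8, and Og had 13.3, 15.9 and 8.60 in 3 files. Of the En-2 values 1 lay within the range of Mt, and all lay above those of Col-0, Hi and Og. By fold enrichment En-2 had 7.41 to 10 and overlapped with Col-0 at 6.06 to 7.84, Og at 5.15 to 7.75 and Mt at 5.60 to 10.3. The mean of En-2 was 2.60 times that of Hi in ppm and 1.52 times by fold enrichment. The CRU2 pattern of calls, in En-2, Hi, Mt and Col-0, was shared by 34 genes, or 0.124% of all genes. Ad-0 listed no peak in the span, but its nearest summits lay 1615 to 1654 bp upstream, 115 to 154 bp outside it, and Og replicate 4 had one 1611 bp upstream. The member nearest to the edge inside was CRA1, by 11 bp. The 201 bases around the CRU2 site held 4 matches to the RY core, some of them overlapping, although the 250 bases before the start held none. At least 2 RY matches were present in 1.08% to 2.08% of windows of this length around all listed summits, over the 20 files with reference names.

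CRU3 (AT4G28520), at chr4:14087556-14089796 on the plus strand, had its site 617 bp upstream of the start. This was 57 bp upstream of the start of PHB1, a divergent gene for a prohibitin of mitochondria. Mt had 15.7, 12.0, 15.0 and 10.7 ppm, En-2 had 14.6, 8.88, 8.68 and 9.47, and Og had 10.8, 10.9, 7.78 and 11.1. Col-0 had 9.44, 8.95, 8.10 and 10.1. Ad-0 listed the site in 2 files, at 5.55 and 6.71, and Hi in 1 file, at 8.60. The Mt values overlapped with those of En-2 and Og and lay just above those of Col-0 in ppm, but by fold enrichment Mt at 7.36 to 10.6 and Col-0 at 6.35 to 7.93 overlapped. The calls in En-2, Mt, Og and Col-0, a pattern that OLEO1 had too, were shared by 2248 genes, or 8.19% of all genes. The RY core before CRU3 began 69 bases and its ACGTG cores began 52, 97 and 209 bases before the start. All 19 summits lay 564 to 671 bp upstream, and the site window printed above holds an ACGTG core and an RY core of its own, 664 and 542 bases before the start. The 201 bases centred on the site also held 1 of each. Of such windows around all listed summits, 28.4% to 39.6% held the ACGTG core and 6.41% to 9.38% the RY core, over the 20 files with reference names.

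**Figure D4:**
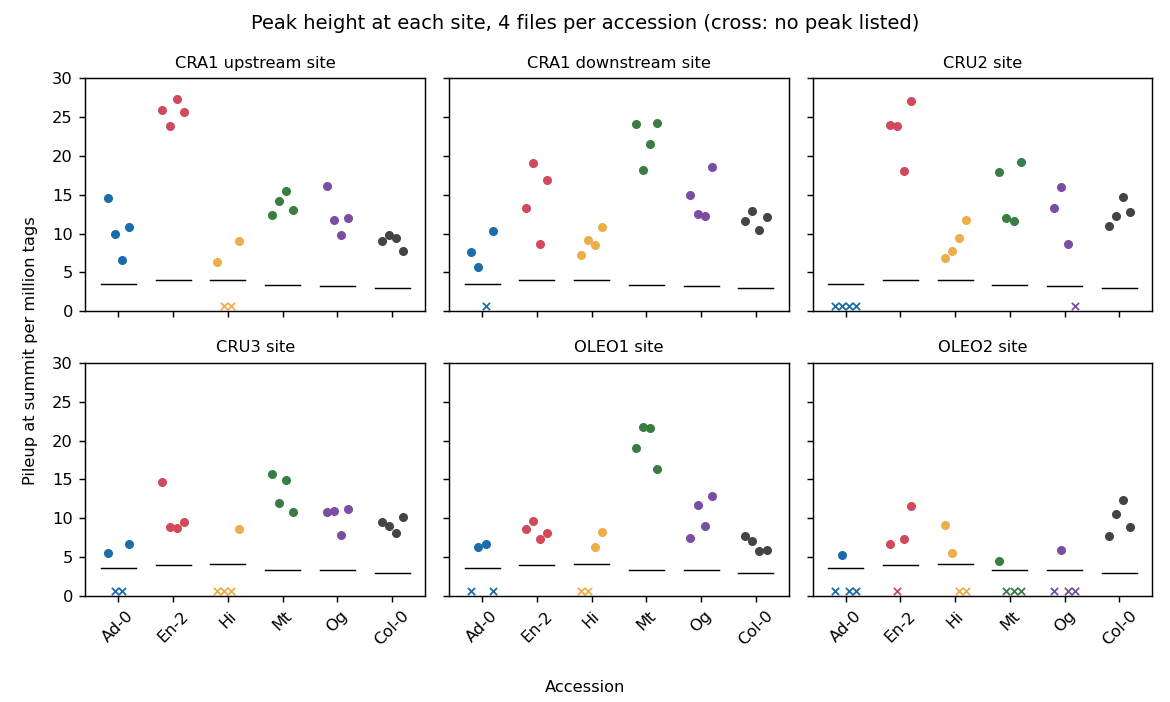
Pileup at the summit in ppm at 6 sites, with 1 point per file and 4 files per accession. A cross marks a file with no listed peak and the black line the lowest pileup in ppm listed in any file of that accession. En-2 is highest at the CRA1 upstream and CRU2 sites, Mt at the CRA1 downstream and OLEO1 sites, and Col-0 alone has 4 points at the OLEO2 site.

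Oleosins coat the oil bodies of the seed and keep them from fusing. OLEO1 (AT4G25140), at chr4:12900430-12901577 on the plus strand, is the major oleosin and was the member with calls in the promoter window. Its site had a median summit 344 bp upstream of the start, and the summits ranged from 186 to 414 bp upstream. The Col-0 summits, 365 to 414 bp upstream, were on Col-0 sequences, where summits near OLEO1 were offset from those of Og by a median of -53.5 bp. PMSR4, a divergent gene for a peptide methionine sulfoxide reductase, is separated from OLEO1 by 339 bp, and the median summit lay 4 bp inside an untranslated exon of PMSR4. All 20 summits were nearer to the start of PMSR4 than to that of OLEO1. Mt stood highest, with 19.1, 21.7, 21.6 and 16.4 ppm, at the 80.8 to 90.3 percentiles of its peaks. Og had 7.47, 11.7, 9.01 and 12.8, En-2 had 8.65, 9.57, 7.34 and 8.11, and Col-0 had 7.72, 6.98, 5.76 and 5.89. Ad-0 had 6.24 and 6.62 in 2 files, and Hi had 6.28 and 8.14 in 2 files. The Mt values lay above those of all other files. The mean of Mt was 2.99 times that of Col-0, and 2.56 times by fold enrichment, a difference between single samples. In the gap printed above, the RY and ACGTG cores stood at the OLEO1 end, 60 to 157 bases before the start, and no summit was closer to the start than 186 bp.

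OLEO2 (AT5G40420), at chr5:16173340-16174783 on the minus strand, differed from the others in that its site lay inside the gene. The median summit was 1046 bp after the start, in a coding exon. Col-0 listed it in all 4 files, at 7.72, 10.5, 12.4 and 8.83 ppm. En-2 listed it in 3 files, at 6.65, 7.34 and 11.5, and Hi in 2, at 9.08 and 5.50. Ad-0, Mt and Og each listed it in 1 file, at 5.20, 4.49 and 5.87. The values in Col-0 overlapped with those in En-2 and Hi. The Col-0 files had 4582467 to 4754108 tags, and no file of the other accessions had more than 2442198. The lowest listed pileup was 2.94 to 3.06 ppm in Col-0 and 3.30 to 4.52 in the others, and the part of depth in this call was not tested. A call in Col-0 alone was made for 507 genes, or 1.85% of all genes. The 201 bases around the site, printed because it is the one site within a member, held none of the 4 motifs. No naked DNA file listed a peak in the OLEO2 span, but those files held few peaks, 580 to 754 on the nuclear chromosomes. In them 1.67% of all genes had a peak in at least 1 file, so absence there was common.
OLEO2 site, chr5:16173637-16173837, minus strand: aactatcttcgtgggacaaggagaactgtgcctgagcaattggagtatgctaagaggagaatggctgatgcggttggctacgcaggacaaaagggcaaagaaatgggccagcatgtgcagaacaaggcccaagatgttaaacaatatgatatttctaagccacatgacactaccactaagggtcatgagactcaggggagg

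Peak heights in the member spans were set beside those of all genes with a peak in the same file. The median over the members with a peak, 2 to 7 genes in a file, ranged over files from 6.24 to 16.7 ppm. It was above the median over all genes with a peak in 16 of 24 files. These were all 4 of Mt, all 4 of Col-0, 3 of Og, 2 of Ad-0, 2 of En-2 and 1 of Hi, and each accession is 1 sample. The median over the members was below that over the photosynthetic genes in 24 of 24 files. The medians of these genes ranged from 11.3 to 26.6 ppm.

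Other genes of the seed programme were counted in the same way, from lists chosen with earlier results of these data known. Of 6 further storage protein and oil body genes, 0 to 2 were called in an accession, or 11.1% of the pairs, against 34.1% for all genes. SESA5, the fifth 2S albumin gene, the globulin gene AT1G03890 and the oleosin gene AT3G01570 had no peak in any accession file. These were 3 of 6, against 20.4% of all genes. Of 7 genes for late embryogenesis abundant and other desiccation proteins, 0 to 5 were called, or 45.2% of the pairs. LEA4-5 and M17, 2 of the 7, had no peak in any accession file, against the same 20.4%. In the promoter window these lists had calls in 5.56% and 14.3% of the pairs, against 17.5% for all genes. For peaks nearest to the own start the shares were 5.56% and 16.7%, against 23.5% for all genes.

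Of 14 regulators of seed maturation, 1 to 6 were called, or 28.6% of the pairs in the span, against 34.1% for all genes. Their share was 20.2% in the promoter window, against 17.5%, and 28.6% for peaks nearest to the own start, against 23.5%. ABI5, a bZIP factor of abscisic acid signalling, was called in all 6 accessions. The master regulators LEC1, LEC2, FUS3 and ABI3, with NF-YB6, ABI4 and EEL, were called in none. These were 7 of 14, against 39.5% of all genes. LEC2, FUS3, NF-YB6 and ABI4, 4 of the 14, had no peak in any accession file, against 20.4% of all genes. LEC1 had a peak in 3 files, ABI3 in 1 and EEL in 2. Of 13 repressors of the seed programme, 0 to 6 were called, or 24.4% of the pairs in the span, and none in all 6 accessions. Their share was 16.7% in the promoter window and 17.9% for peaks nearest to the own start, both closer than in the span to the shares of all genes just given. HSI2, also known as VAL1, FIE, VRN2, HD1 and HDA6 were called in no accession with a peak in 4, 2, 4, 11 and 4 files, and TFL2, the LHP1 protein of Polycomb silencing, had none. These were 6 of 13, again against 39.5%. Of the photosynthetic genes 84.5% of the pairs were called in the span and 58.3% in the promoter window. The exception without a call was CAB3, with a peak in 14 files. Among the root and pollen genes 16.7% of the pairs were called, and PLT1, RHD6 and VGD1 in none.

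**Figure D5:**
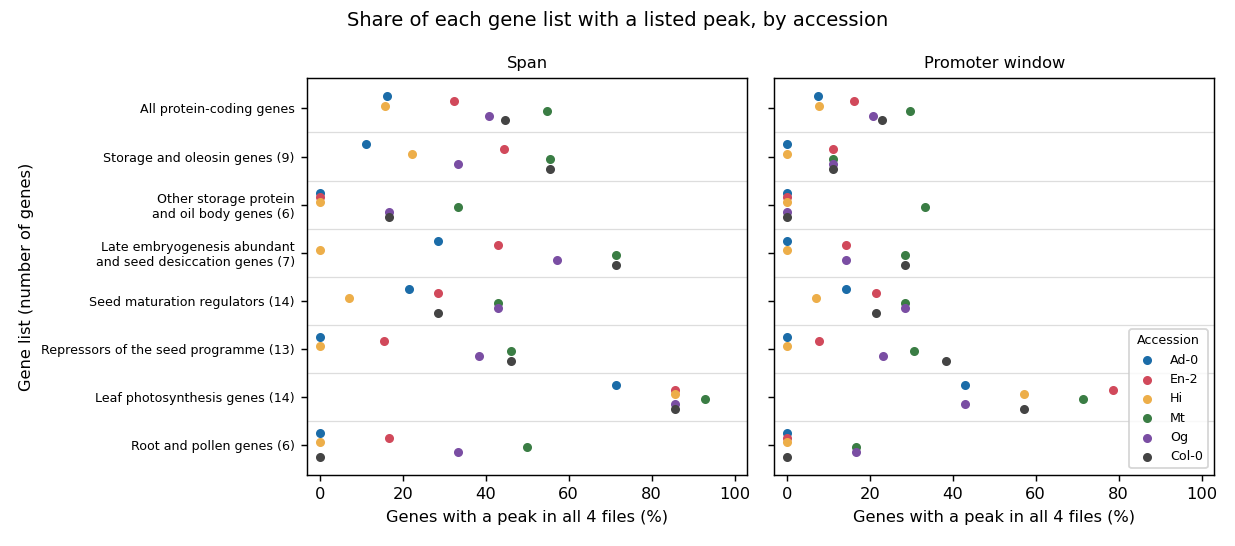
Percent of the genes of each list with a peak in all 4 files, with 1 point per accession, in the span (left) and in the promoter window (right). The photosynthetic genes lie between 71.4% and 92.9% in the span, and the storage and oleosin genes between 11.1% and 55.6%, across the range of all protein-coding genes.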

How the data were processed

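ATAC-seq peak lists of leaf were used for 6 accessions and for naked DNA, 28 of the 96 files. The other 68 files lie on sequences of other accessions and were not used here. Per the labels, the authors mapped reads with Bowtie 1.2.2, with TAIR10 as the build, and called peaks with MACS2 2.1.2. The mapping settings are not given in the sources used here, and the study's methods name each accession's own genome as the target. Per the file headers, each file was called alone at a q-value cutoff of 0.05, no control library was given, and duplicates were retained. The deposited pileup is coverage by extended tags at the summit and is not scaled between files. The deposited fold enrichment is the ratio of that pileup to the local background, and significance is deposited as −log10 of the p-value and the q-value.

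Summits were assigned to genes of the RefSeq TAIR10.1 annotation, whose starts are the outermost transcribed bases. No position was converted. At the 9 loci the Col-0 summits were offset from those of Og by a median of -92 to 51 bp. Pileup was divided by the tags in the file header and multiplied by 1000000 (ppm). Summits within 150 bp of the next formed a site. The replicate index used summits within 50 bp with a summed pileup of at least 40. Named genes are the 9 members, the genes whose start is nearest to a member site, and list genes called in all accessions or in none, where these were 8 or fewer. The members, lists and definitions were chosen with earlier results of these data known. The gene assignment was tested on simulated data and recovered 1000 of 1000 genes. Python 3.11.15 with NumPy 2.4.6, pandas 2.3.3 and matplotlib 3.10.9 was used. Alternatives were stricter q-values, a common minimum height, other spans and assignments, fewer files, each replicate left out, genes of 500 to 2500 bp as background, and fold enrichment for height. The sequence of 1 site is not reported here.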

Additional observations from a re-analysis of the deposited data

Results flagged for a closer look

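At the CRU3 site, beside the start of PHB1, 1 file stood apart from the other 3 of its accession in each of 2 accessions. En-2 replicate 1 had 14.6 ppm, and the other En-2 files had 8.68 to 9.47. Og replicate 3 had 7.78 ppm, and the other Og files had 10.8 to 11.1. Both were found by the gap between the extreme file and its nearest neighbour, among 24 sets of 4 files checked, where chance gives about 1.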

How the results depend on the processing

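The counts of members called in the span were 1, 4, 2, 5, 3 and 5 in Ad-0, En-2, Hi, Mt, Og and Col-0, and they were the same at q-values of 0.01 and 0.001 and with a common minimum height of 4.04 ppm. With any base of a peak in the span Ad-0 had 2 and Og had 4, and with the span widened by 150 bp Og had 4. From 1000 bp upstream to the end of the gene, Ad-0 and Hi had 0, En-2 and Og had 2, and Mt and Col-0 had 3. In the promoter window the counts were 0, 1, 0, 1, 1 and 1, with 7.57%, 16.1%, 7.84%, 29.6%, 20.9% and 23% of all genes. Counting only peaks nearest to the own start gave 1 in En-2, Mt and Og, 0 in Hi and 2 in Col-0, with 10.7% of all genes in Ad-0 and 21.4% in En-2. With 1 file enough, Ad-0 had 4, and Hi and Og had 5, with 32%, 30.3% and 61.3% of all genes and 52.1% in En-2. An alternative chosen after seeing the data left out peaks within 200 bp of the start of another gene, for members and all genes alike. It gave 2 in En-2, 1 in Hi, 2 in Mt, 1 in Og and 3 in Col-0, a total of 10 in place of 20 of 54 pairs, while the share of all genes went from 54.7% to 41.4% in Mt and from 16.3% to 12.2% in Ad-0. Leaving out each replicate gave a total of 20 to 22. By fold enrichment in place of height, En-2 was 1.97 times Col-0 at the CRA1 upstream site, in place of 2.86, and 1.52 times Hi at the CRU2 site, in place of 2.60. No paired analysis was possible because the results are counts and levels from peak lists, with no test between groups. The lists hold no coverage outside peaks and each accession is 1 sample, so neither the absence of signal nor a difference between accessions could be tested.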

Other observations

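Within the wider oil body and desiccation lists, some genes had peaks in many files without a call in every accession. EM1, a late embryogenesis abundant gene, had a peak in 23 of 24 files and was called in 5 accessions, and ECP63 had one in 22 files and was called in 5. PER1, a peroxiredoxin gene of dormant seeds, had one in 20 files and was called in 4. Of all genes, 8.81% were called in 5 accessions and 10.2% in 4. Of the oleosin genes outside the 9, OLEO4 had a peak in 15 files and OLEO3 in 9. These 5 genes were chosen after their values were seen. Their counts are for the span, which can reach the start of a neighbouring gene. Over the whole desiccation list, 16.7% of the pairs were called by peaks nearest to the own start, against 23.5% for all genes. In the naked DNA control, SESA5 and ECP63 each had a peak in 1 file.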
